A study of Homo sapiens with 4 samples.

Results

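The genes described here are 9 interferon-stimulated genes, IFIT1, IFIT2, IFIT3, ISG15, OAS1, MX1, IFI6, IFI27 and IRF9, taken by gene symbol from the 24462 genes counted in each of 4 HepG2 libraries. HepG2 is a human liver cancer cell line, and each library came from a different condition, so that there was 1 library per condition. Cells had been given DMSO, the solvent, or PD0332991, a kinase inhibitor of CDK4 and CDK6, or had received siRNA by transfection, either scrambled or a mix of siCDK4 and siCDK6 oligos (CDK4/6 KD). Libraries were made from total RNA with a QuantSeq kit, which primes at the poly(A) tail and reads the 3′ end of a transcript. For the cells that were sequenced, dose and exposure time are not given in the sources used here, and no library of cells given transfection reagent alone was analysed here. Whether the transfected cells also received DMSO is not given either. Transfection, the siRNA itself and any difference in DMSO therefore cannot be told apart in a comparison of the siRNA libraries with the other libraries. With 1 library per condition no p-value was computed, and no difference had a replicate check.

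Interferons are secreted proteins that cells make when they sense foreign RNA or DNA. Type I and type III interferons bind receptors on the cell surface, the kinases JAK1 and TYK2 are activated, and the complex ISGF3 forms, of which STAT2 and IRF9 are subunits. ISGF3 binds a DNA element called the ISRE in front of interferon-stimulated genes and switches them on. Double-stranded RNA, including some siRNAs, can start this response through the sensors RIG-I (DDX58), MDA5 (IFIH1), TLR3 and PKR (EIF2AK2). The 9 genes cover several of its arms. IFIT1, IFIT2 and IFIT3 encode proteins with tetratricopeptide repeats that bind foreign RNA and one another, ISG15 is a ubiquitin-like protein that is attached to other proteins, OAS1 makes a second messenger when it binds double-stranded RNA, MX1 is a dynamin-like GTPase that traps viral particles, and IFI6 and IFI27 are small hydrophobic membrane proteins.

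The promoters of most of these genes carried the letters of the ISRE core, which are shown because they are a feature the genes share outside their counts. RefSeq promoter windows on GRCh38.p14, of 300 bases from 250 before to 50 after a start site, matched 8 of the 9 genes, all but IFIT2. The core was searched on both strands as GAAA, any 2 bases and GAAA again. It was found for 6 of the 8 genes, IFIT1, IFIT3, ISG15, MX1, IFI6 and IFI27, and in 4.38% of the 27305 genes with a window. Of 44 other type I interferon-stimulated genes with a window, 28 held it too. Capitals mark the core or its reverse complement in the following stretches of 30 bases, each read 5′ to 3′ on the strand of the gene.
IFIT1 (chr10:89392497-89392526, plus strand): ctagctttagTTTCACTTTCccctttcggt
IFIT3 (chr10:89327865-89327894, plus strand): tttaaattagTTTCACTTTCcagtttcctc
ISG15 (chr1:1013374-1013403, plus strand): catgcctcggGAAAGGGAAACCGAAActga
IFI6 (chr1:27672288-27672317, minus strand): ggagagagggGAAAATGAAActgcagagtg
IFI27 (chr14:94110631-94110660, plus strand): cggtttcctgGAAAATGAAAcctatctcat
The first base in capitals lay 116 bases before the start site of IFIT1, 122 before the first start site of IFIT3, 113 before that of ISG15, 115 before that of IFI6 and 95 before the first start site of IFI27. ISG15 held a pair of overlapping cores and IFI6 held 3 separate ones. The letters were not found in the windows of OAS1 and IRF9, which says only that this spelling is not in those stretches. OAS1 and IRF9 did hold the letters TTCNNNGAA of the GAS element, through which interferon gamma acts, as did MX1 and IFI27, a motif of 9.38% of genes. Of the 44 other type I interferon-stimulated genes, 11 held the GAS letters. In IFI27 and MX1 the GAS letters overlapped an ISRE core. A match to these letters is a description of the sequence and not evidence that a factor was bound there.

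Depth was 9123209 reads in DMSO, 8983848 in PD0332991, 11176880 in scrambled siRNA, and 11000545 in the CDK4/6 KD library. Markers of liver cells were counted in every library, with 27539 to 58465 reads of ALB. The knockdown targets were lower in the CDK4/6 KD library, where CDK4 had 814 reads against 3789 in scrambled siRNA and CDK6 had 1464 against 5734. The 7 leukocyte markers summed to between 511 CPM in CDK4/6 KD and 1036 CPM in scrambled siRNA, nearly all of it LYZ, while PTPRC, the pan-leukocyte marker, had at most 2 reads per library and CD3E had 0 in all 4. The 4 endothelial markers together had 4 or 5 reads per library. The 10 keratinocyte markers summed to 203 CPM in DMSO, 197 in PD0332991, 362 in scrambled siRNA and 203 in the CDK4/6 KD library, sums that came largely from KRT10 and SFN. KRT14, a basal keratinocyte keratin, stood apart in PD0332991, with 249 reads there against 9 in DMSO, 31 in scrambled siRNA and 74 in CDK4/6 KD. The 6 fibroblast markers summed to 48.3 CPM in DMSO, 78.9 in PD0332991, 8.60 in scrambled siRNA and 22.7 in CDK4/6 KD.

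All 9 interferon-stimulated genes were counted at low to middling levels in all 4 libraries, and none was at least 2-fold higher in both siRNA libraries than in both others. IFI6 had 210 reads in DMSO, 245 in PD0332991, 249 in scrambled siRNA and 366 in CDK4/6 KD. ISG15 had 147, 131, 166 and 272 in the same order. These 2 genes gave 56.7% to 64.4% of the reads of the 9. Library sizes were corrected with TMM factors, and CPM stands for reads per 1000000 of the corrected library size. On that scale, IFI6 ran from 23.0 CPM in DMSO to 32.3 in CDK4/6 KD, and ISG15 from 14.4 CPM in PD0332991 to 24.0 in CDK4/6 KD. CDK4/6 KD was the highest library for both, while scrambled siRNA lay at the level of DMSO.

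**Figure D1:**
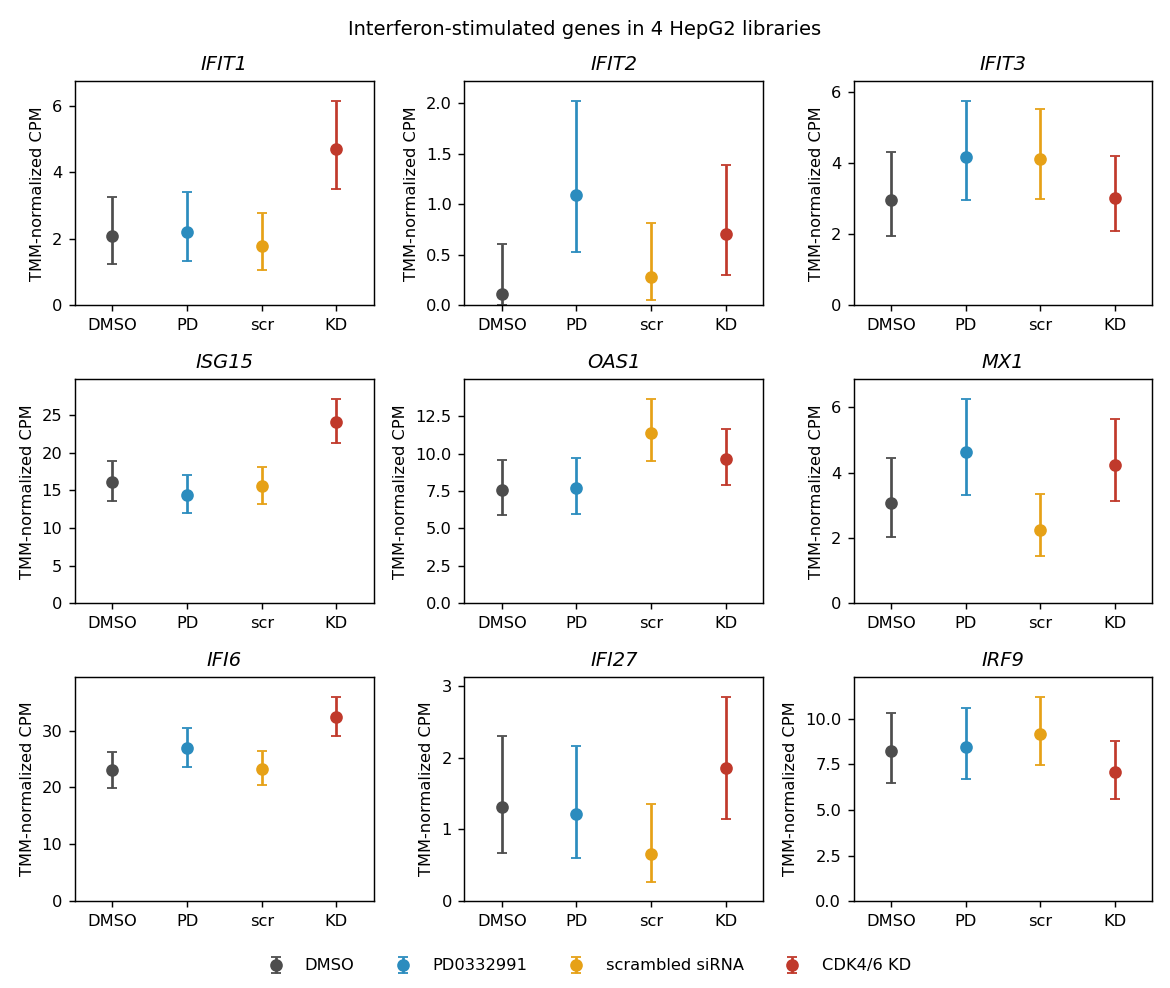
TMM-normalized CPM (linear axis from 0, scaled separately for each gene) of the 9 interferon-stimulated genes in DMSO, PD0332991 (PD), scrambled siRNA (scr) and CDK4/6 KD (KD), 1 library each, with exact 95% Poisson intervals that cover counting error only. CDK4/6 KD was the highest library for IFIT1, ISG15, IFI6 and IFI27, PD0332991 for IFIT2, IFIT3 and MX1, and scrambled siRNA for OAS1 and IRF9.

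IFIT1 had 19 reads in DMSO, 20 in PD0332991, 19 in scrambled siRNA and 53 in CDK4/6 KD, so that a single library stood above 3 near-equal ones. IFIT3, its partner in the RNA-binding complex, had 27, 38, 44 and 34 reads, without a high library among them. IFIT2 was at the limit of counting with 1, 10, 3 and 8 reads. A count of 3 reads, the floor used here, corresponded to between 0.265 and 0.330 CPM in these libraries.

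OAS1 had 69 reads in DMSO, 70 in PD0332991, 122 in scrambled siRNA and 109 in CDK4/6 KD. It was the only one of the 9 genes with both siRNA libraries above both others. MX1 had 28, 42, 24 and 48 reads, and IFI27 had 12, 11, 7 and 21, with scrambled siRNA the lowest library for both. IRF9, the DNA-binding subunit of ISGF3, had 75, 77, 98 and 80 reads and spanned the narrowest range of the 9, with the highest library 1.29 times the lowest on the normalized scale. IFIT2 spanned the widest range, on its few reads.

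The question behind the siRNA libraries is whether transfection went with an interferon response. It was put in a pair of comparisons that share no library, scrambled siRNA against DMSO, without CDK4/6 inhibition, and CDK4/6 KD against PD0332991, with it. The latter also sets knockdown against a kinase inhibitor, with the summed CDK4 and CDK6 level at 0.273 of that in PD0332991, so that transfection and the mode of inhibition cannot be told apart in it. In both, the sums of the 6 fibroblast markers were lower in the siRNA library, at ratios of 0.178 and 0.288, and their part in the values of the 9 genes was not tested. Before a fold change was taken, 0.5 reads scaled to library size were added to each count, and a gene needed 10 reads in one or the other library. The 95% intervals treat the reads of a gene as split between both libraries (exact Clopper-Pearson), cover counting error only and compare libraries, not conditions. PCR copies are not accounted for, since no molecular identifiers are named.

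In scrambled siRNA against DMSO, 8 of the 9 genes passed the filter and none was at least 2-fold higher or lower, where 5.30% of all 13303 genes passing it were 2-fold higher and 6.64% were 2-fold lower. OAS1 was the gene with an interval above 1 (fold change: 1.51, interval 1.12 to 2.06), and no gene had an interval below 1. Of all genes, 28.3% had an interval above 1 and 28.0% had one below. ISG15 (fold change: 0.964, interval 0.768 to 1.21) and IRF9 (fold change: 1.12, interval 0.818 to 1.53) had intervals that held 1. So did IFI6, with a fold change of 1.01 (interval 0.839 to 1.22) that moved to 0.968 when total counts alone were used. For these 3 genes and IFIT1 (fold change: 0.857, interval 0.428 to 1.70) and MX1 (fold change: 0.736, interval 0.406 to 1.31), the intervals left out a 2-fold higher level in scrambled siRNA. For IFIT3 (fold change: 1.39, interval 0.843 to 2.34) and OAS1 they did not. IFI27 rested on 7 and 12 reads (fold change: 0.516, interval 0.166 to 1.37) and met the filter through DMSO alone, and IFIT2 was at the floor in both libraries. Over the 8 genes the log2 fold change had a median of -0.02, beside 0.01 over all genes.

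In CDK4/6 KD against PD0332991 all 9 genes passed the filter, and IFIT1 was the 1 gene at least 2-fold higher (fold change: 2.11, interval 1.25 to 3.77), beside 6.65% of 13683 genes. None was 2-fold lower, beside 7.44%. ISG15 (fold change: 1.67, interval 1.35 to 2.07) and IFI6 (fold change: 1.20, interval 1.02 to 1.42) also had intervals above 1, which made 3 of 9 genes, where 29.4% of all genes had such an interval and 27.7% had one below 1. OAS1 had a fold change of 1.25 (interval 0.919 to 1.72), MX1 of 0.920 (interval 0.595 to 1.43) and IRF9 of 0.837 (interval 0.604 to 1.16). IFIT3 (fold change: 0.723, interval 0.440 to 1.17), IFIT2 (fold change: 0.659, interval 0.221 to 1.81) and IFI27 (fold change: 1.52, interval 0.708 to 3.53) rested on few reads, and their intervals held 1. Over the 9 genes the log2 fold change had a median of 0.26, beside 0.01 over all genes.

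**Figure D2:**
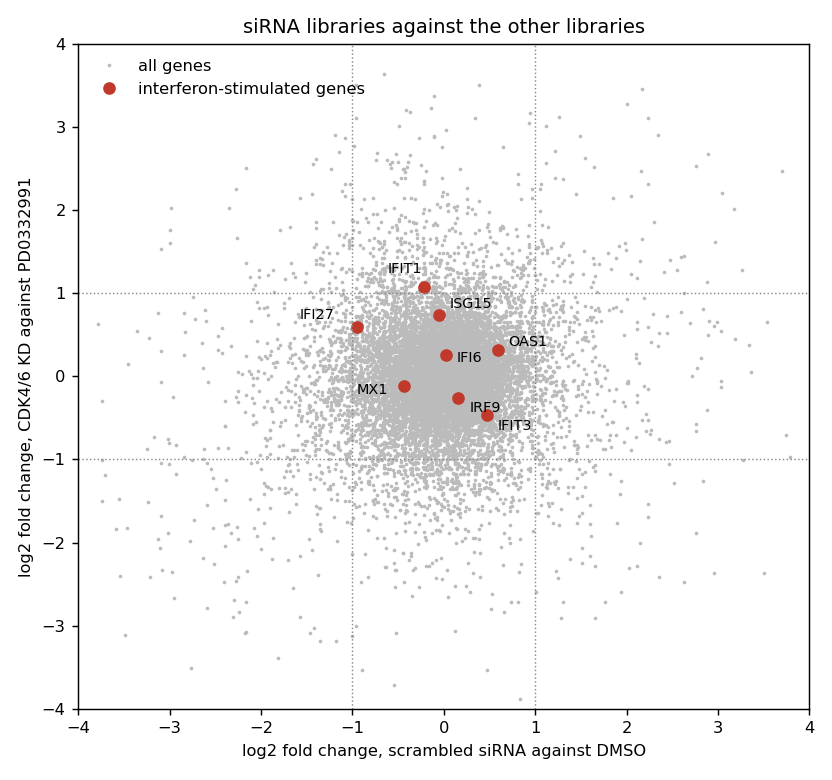
Log2 fold change of CDK4/6 KD against PD0332991 (vertical axis) and of scrambled siRNA against DMSO (horizontal axis) for 13025 genes past the filter in both (grey, 49 of them outside the axes), with 8 of the interferon-stimulated genes in red and dotted lines at 2-fold. The red points lie within the cloud of all genes, and none is past 2-fold on the horizontal axis.

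Taking the 4 libraries at once, no member was at least 2-fold above both other libraries in both siRNA libraries, beside 0.580% of 13961 genes, and none was 2-fold below, beside 0.895%. With any gap counted, OAS1 was above, 1 of 9 genes beside 16.1% of all genes, and none was below, beside 15.2%. The mean log2 level of the siRNA libraries minus that of the others was 0.46 for OAS1, 0.43 for IFIT1 and 0.34 for ISG15. It was 0.23 for IFIT2, which turned to -0.02 with 5 added reads, 0.14 for IFI6, 0.00 for IFIT3, -0.05 for IRF9, -0.18 for IFI27 and -0.28 for MX1. For IFIT1 the difference came from the CDK4/6 KD library, since scrambled siRNA was its lowest library.

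The study's own contrasts set each form of CDK4/6 inhibition against its control. In CDK4/6 KD against scrambled siRNA, IFIT1 (fold change: 2.59, interval 1.54 to 4.72) and IFI27 (fold change: 2.71, interval 1.16 to 7.90, on 21 and 7 reads) were at least 2-fold higher. They made 2 of the 8 genes past the filter, beside 9.19% of 13617 genes, although IFI27 met the filter through CDK4/6 KD alone and could enter only by being high there, and none was 2-fold lower, beside 7.62%. Counting intervals alone, MX1 (fold change: 1.87, interval 1.14 to 3.23), ISG15 (fold change: 1.55, interval 1.27 to 1.89) and IFI6 (fold change: 1.39, interval 1.18 to 1.64) were also higher in CDK4/6 KD. The 5 genes of 8 compare with 30.0% of all genes, and the 0 genes with an interval below 1 compare with 31.9%. OAS1 (fold change: 0.845), IRF9 (fold change: 0.773) and IFIT3 (fold change: 0.734) lay below 1 with intervals that held 1, up to 1.10, 1.05 and 1.17. The median log2 fold change was 0.55, beside -0.00 over all genes. The choice of control bore on these values, since scrambled siRNA was the lowest library for IFIT1, MX1 and IFI27. Against DMSO, CDK4/6 KD had fold changes of 2.22 for IFIT1 (interval 1.31 to 4.03), 1.49 for ISG15 (interval 1.22 to 1.84) and 1.41 for IFI6 (interval 1.18 to 1.68). Those of MX1, at 1.38, and IFI27, at 1.40, then had intervals that held 1, from 0.851 to 2.29 and from 0.664 to 3.15. Hepatocyte markers were also higher in the CDK4/6 KD library, with sums over 10 genes of 22300 CPM against 17790 in scrambled siRNA, a ratio of 1.25. The sums of the fibroblast markers had a ratio of 2.64, those of the keratinocyte markers 0.560 and those of the leukocyte markers 0.494. The part of these markers in the result was not tested. Fewer cells expressing a gene and less RNA of it per cell cannot be told apart in these bulk libraries.

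In PD0332991 against DMSO, IFIT2 was the 1 gene of 9 at least 2-fold higher, with 10 reads against 1 (fold change: 7.21, interval 1.43 to 436), beside 7.49% of 13443 genes. It met the filter of 10 reads through PD0332991 alone, so that it could enter this count only by being high there, and its fold change was 2.63 with 5 reads added in place of 0.5. None was 2-fold lower, beside 7.07%. No other gene had an interval away from 1, so that 1 of 9 was above, beside 28.1% of all genes, and 0 were below, beside 28.6%. MX1 (log2 fold change: 0.58, fold interval 0.911 to 2.52) and IFIT3 (fold change: 1.41, interval 0.840 to 2.41) came next. IFI6 had a fold change of 1.17 (interval 0.970 to 1.41), ISG15 of 0.895 (interval 0.701 to 1.14), OAS1 of 1.02 (interval 0.720 to 1.44), IRF9 of 1.03 (interval 0.740 to 1.44) and IFI27 of 0.923 (interval 0.368 to 2.28). IFIT1 had a fold change of 1.06, with 0.909 under quantile normalization. The median log2 fold change was 0.08, beside 0.02 over all genes. Of the 5 keratinocyte markers past the filter in this comparison, 3 (KRT5, KRT14 and KRT6A) were at least 2-fold higher and 1 (SFN) was 2-fold lower, with a ratio of sums of 0.972. At least KRT14 met the filter through PD0332991 alone, so that it could enter this count only by being high there. The sums of the fibroblast markers had a ratio of 1.63, with DCN at 18 reads against 0. The part of the keratinocyte and fibroblast markers in the values of IFIT2, IFIT3 and MX1, for which PD0332991 was the highest library, was not tested.

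**Figure D3:**
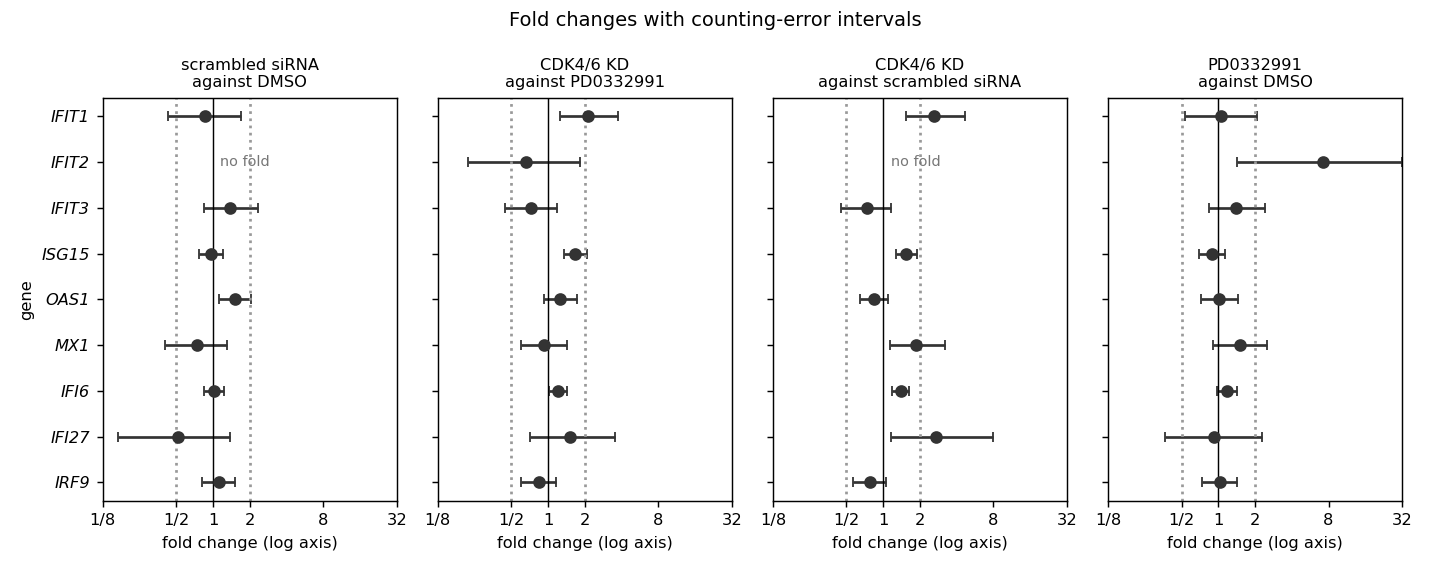
Fold changes (log axis) of the 9 interferon-stimulated genes in 4 comparisons of single libraries, with exact 95% intervals of counting error, a solid line at 1 and dotted lines at 2-fold up and down. In scrambled siRNA against DMSO the interval of OAS1 alone lies to the right of 1. In CDK4/6 KD against scrambled siRNA those of IFIT1, ISG15, MX1, IFI6 and IFI27 do, and the interval of IFIT2 in PD0332991 against DMSO runs past the axis.

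Summed over the 9 genes, the reads made 64.4 CPM in DMSO, 70.7 in PD0332991, 68.4 in scrambled siRNA and 87.6 in CDK4/6 KD. The ratio of sums was 1.06 (interval 0.952 to 1.19) for scrambled siRNA against DMSO and 1.28 (interval 1.16 to 1.41) for CDK4/6 KD against scrambled siRNA. Without IFI6 and ISG15, the other 7 genes gave ratios of 1.17 (interval 0.986 to 1.39) and 1.05 (interval 0.902 to 1.23). For CDK4/6 KD against PD0332991 the ratio was 1.24 (interval 1.12 to 1.37) over the 9 genes. It was 1.06 (interval 0.901 to 1.25) without IFI6 and ISG15. The higher sum in CDK4/6 KD thus came mostly from IFI6 and ISG15.

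Some paralogs of these genes had other orders of the libraries. OAS3, a longer relative of OAS1, had 260 reads in DMSO, 182 in PD0332991, 397 in scrambled siRNA and 91 in CDK4/6 KD. It was lower in CDK4/6 KD than in PD0332991 (fold change: 0.404, interval 0.309 to 0.520) and than in scrambled siRNA (fold change: 0.218, interval 0.171 to 0.273). MX2, the nuclear-envelope relative of MX1, had 151, 185, 180 and 95 reads, again the lowest in CDK4/6 KD (fold change against PD0332991: 0.415, interval 0.319 to 0.532). For MX1, the CDK4/6 KD library was level with PD0332991. OAS2 had at most 2 reads in any library and OASL had 0 in all 4.

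The genes that would start an interferon response were examined with lists written by hand. None of 21 interferon genes, IFNB1 and IFNL1 among them, had a read in any library, so that each was under the floor of 0.265 to 0.330 CPM that a count of 0 allows. Of the receptors, IFNAR1 had 285 reads in DMSO, 343 in PD0332991, 443 in scrambled siRNA and 478 in CDK4/6 KD. IFNAR2 had 141, 175, 155 and 153. In scrambled siRNA against DMSO, IFNAR1 was higher (fold change: 1.33, interval 1.14 to 1.55), while the interval of IFNAR2 held 1 (fold change: 0.939, interval 0.742 to 1.19). In the same comparison, IFNGR1, the interferon gamma receptor (fold change: 0.391, interval 0.326 to 0.467), IFNLR1, the type III receptor (fold change: 0.419, interval 0.275 to 0.621), and IL10RB, its partner chain (fold change: 0.525, interval 0.419 to 0.654), were lower. Of the 6 receptor genes, 1 had an interval above 1 there and 4 had one below, beside 28.3% and 28.0% of all genes. In CDK4/6 KD against PD0332991, IFNGR1 was higher (fold change: 1.39, interval 1.20 to 1.62) and IFNAR2 lower (fold change: 0.704, interval 0.562 to 0.879), and the interval of IFNAR1 held 1 (fold change: 1.12, interval 0.974 to 1.29). IFNGR1 thus lay on opposite sides of 1 in these comparisons.

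STAT2, which pairs with IRF9 in ISGF3, had 146 reads in DMSO, 217 in PD0332991, 248 in scrambled siRNA, and 214 in the CDK4/6 KD library. It was higher in scrambled siRNA against DMSO (fold change: 1.45, interval 1.18 to 1.79) and lower in CDK4/6 KD against PD0332991 (fold change: 0.794, interval 0.654 to 0.963). The kinases JAK1 and TYK2 were higher in CDK4/6 KD than in PD0332991 (fold changes of 1.39, interval 1.27 to 1.51, and 1.35, interval 1.18 to 1.54). Both kinases were also higher in scrambled siRNA against DMSO (fold changes of 1.21, interval 1.11 to 1.33, and 1.16, interval 1.02 to 1.32). PIAS1, an inhibitor of STAT signalling, was higher in CDK4/6 KD than in PD0332991 (fold change: 1.59, interval 1.29 to 1.97) and lower in scrambled siRNA against DMSO (fold change: 0.613, interval 0.505 to 0.742). In the latter comparison, the phosphatase PTPN6 was higher (fold change: 2.24, interval 1.43 to 3.71) and SOCS3, a feedback inhibitor, was lower (fold change: 0.422, interval 0.218 to 0.761, on 17 and 35 reads). Of the 12 genes in the list of JAK-STAT signalling and feedback, 6 had an interval above 1 there and 2 had one below, beside 28.3% and 28.0% of all genes. In CDK4/6 KD against PD0332991 these were 5 and 2, beside 29.4% and 27.7%. USP18, which removes ISG15 from proteins and dampens the receptor, had 134, 182, 182 and 270 reads, with intervals that held 1 in both comparisons and one above 1 in CDK4/6 KD against scrambled siRNA (fold change: 1.40, interval 1.16 to 1.70). UBE2L6, the conjugating enzyme of ISG15, which was picked after its values were seen, had 165, 209, 271 and 402 reads and was highest in the library where ISG15 was.

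Of the 21 RNA-sensing genes, 14 passed the filter. None was at least 2-fold higher in either siRNA comparison, beside 5.30% and 6.65% of all genes, and 2 were 2-fold lower in CDK4/6 KD against PD0332991, beside 7.44%. In scrambled siRNA against DMSO, 1 of the 14 had an interval above 1 and 3 had one below, beside 28.3% and 28.0% of all genes. In CDK4/6 KD against PD0332991 these were 3 and 5, beside 29.4% and 27.7%. DDX58 had 115 reads in DMSO, 123 in PD0332991, 127 in scrambled siRNA and 156 in CDK4/6 KD. IFIH1 had 80, 70, 91 and 76. Their fold changes in scrambled siRNA against DMSO were 0.943 (interval 0.727 to 1.22) and 0.972 (interval 0.711 to 1.33). TLR3 and TLR8 had 0 reads in all 4 libraries, and TLR7 had at most 2. EIF2AK2 (fold change: 0.632, interval 0.569 to 0.701), the adaptor MAVS (fold change: 0.612, interval 0.573 to 0.654) and the ligase TRIM25 (fold change: 0.726, interval 0.665 to 0.794) were lower in the scrambled siRNA library than in DMSO. MAVS (fold change: 0.731), TRIM25 (fold change: 0.612) and the TLR3 adaptor TICAM1 (fold change: 0.466) were lower in CDK4/6 KD than in PD0332991, with intervals below 1. The genes with intervals above 1, which were picked after their values were seen, were DHX58, a relative of RIG-I, in scrambled siRNA against DMSO (37 and 17 reads, fold change: 1.84, interval 1.02 to 3.52) and TBK1 (fold change: 1.53), TRAF3 (fold change: 1.27) and PRKRA (fold change: 1.25) in CDK4/6 KD against PD0332991. Of the 5 DNA-sensing genes, MB21D1 (cGAS) and AIM2 had 0 reads in all 4 libraries. TREX1 (fold changes of 0.698 and 0.910) and TMEM173, which encodes STING (fold changes of 0.996 and 1.24), passed the filter with intervals that held 1 in both comparisons.

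Among the interferon regulatory factors, IRF7, which amplifies the response, had at most 1 read per library. IRF3 had 242 reads in DMSO, 166 in PD0332991, 281 in scrambled siRNA and 203 in CDK4/6 KD. Its level was 0.992-fold in scrambled siRNA against DMSO (interval 0.832 to 1.18) and 0.984-fold in CDK4/6 KD against PD0332991 (interval 0.797 to 1.22). IRF1 (fold changes of 0.791 and 0.714) and IRF2 (fold changes of 0.774 and 0.548) were lower in both with intervals below 1. IRF5 was lower in CDK4/6 KD than in PD0332991, on 15 and 27 reads (fold change: 0.456, interval 0.221 to 0.871).

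A wider list of 53 type I interferon-stimulated genes was read the same way. In scrambled siRNA against DMSO, 38 of them passed the filter, of which 0 were at least 2-fold higher and 1 was 2-fold lower, with 13 intervals above 1 and 8 below, where all genes gave 5.30%, 6.64%, 28.3% and 28.0%. The median log2 fold change was 0.16. TRIM22, a ubiquitin ligase (1 read against 10, log2 fold change: -3.00, fold interval 0.00197 to 0.600), ZNFX1, a helicase (fold change: 1.60, interval 1.45 to 1.76), and CNP (fold change: 0.690, interval 0.655 to 0.727) differed most firmly. TRIM22 met the filter of 10 reads through DMSO alone, so that it could enter only by being high there. In CDK4/6 KD against PD0332991, 39 passed, of which 2 were 2-fold higher and 4 were 2-fold lower, with 8 intervals above 1 and 13 below, where all genes gave 6.65%, 7.44%, 29.4% and 27.7%, and the median was -0.05. ZNFX1 (fold change: 0.430, interval 0.381 to 0.484), OAS3 and MX2 were the firmest there, all lower. The 2 genes that were 2-fold higher, HERC5 (11 and 2 reads) and TRIM22 (14 and 3 reads), met the filter through CDK4/6 KD alone. HERC6 (2 and 12 reads), which was 2-fold lower, met it through PD0332991 alone. IFITM3 had 2673 reads in DMSO, 2505 in PD0332991, 4151 in scrambled siRNA and 4516 in CDK4/6 KD. Its fold changes in these comparisons were 1.33 (interval 1.26 to 1.39) and 1.45 (interval 1.38 to 1.52). IFI30 also had intervals above 1 in both (fold changes of 1.19 and 1.29). DTX3L had intervals below 1 in both (fold changes of 0.815 and 0.656). IFITM3, IFI30 and DTX3L were picked after their values were seen. RSAD2, CXCL10 and RTP4, which interferon induces strongly in many cells, had 0 reads in all 4 libraries. In the list of 14 genes tied to interferon gamma, 8 passed the filter. The tRNA synthetase WARS was higher in both siRNA comparisons (fold changes of 1.59, interval 1.40 to 1.82, and 1.65, interval 1.49 to 1.83). The guanylate-binding protein gene GBP3 had 8 reads in DMSO, 14 in PD0332991, 28 in scrambled siRNA and 0 in CDK4/6 KD. Its fold change was 2.88 (interval 1.33 to 7.59) for scrambled siRNA against DMSO, where it met the filter through scrambled siRNA alone. For CDK4/6 KD against PD0332991 it was 0.0313 (interval 0 to 0.243), where GBP3 met the filter through PD0332991 alone. GBP2 was lower in CDK4/6 KD than in PD0332991 (fold change: 0.463, interval 0.329 to 0.641).

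**Figure D4:**
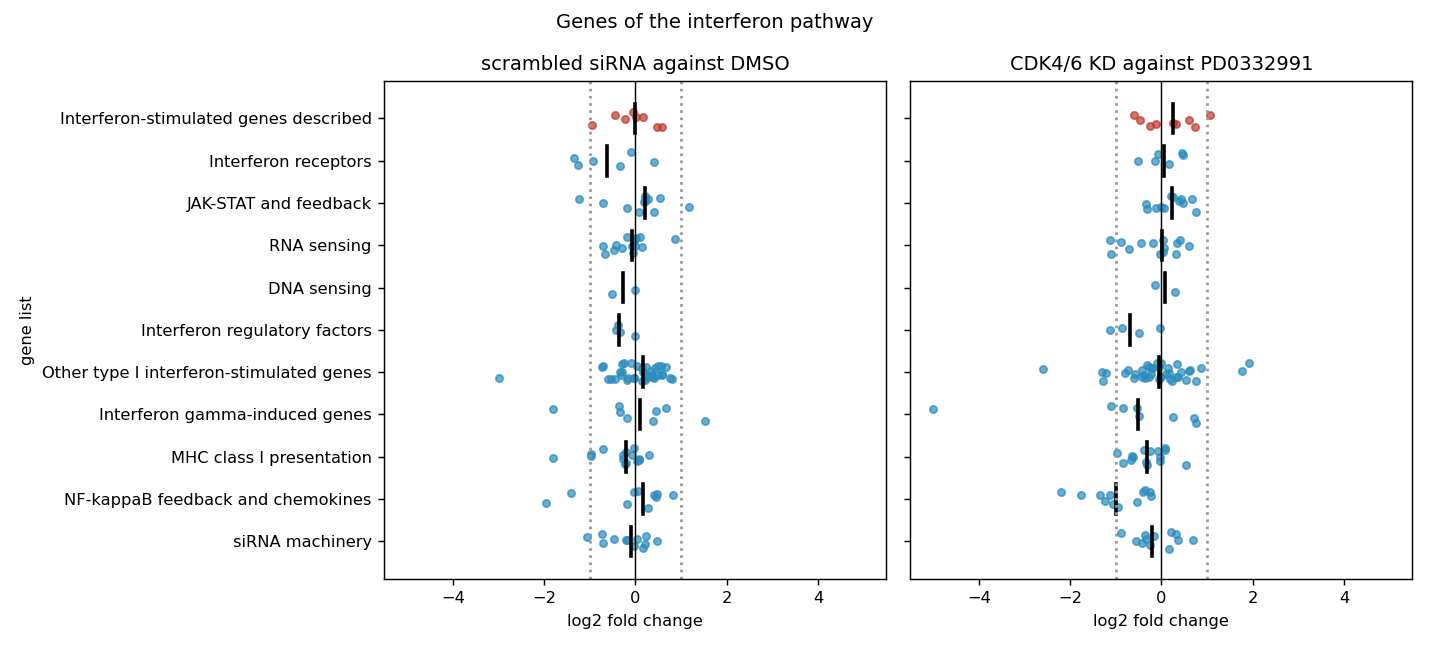
Log2 fold changes of scrambled siRNA against DMSO (left) and of CDK4/6 KD against PD0332991 (right) for the 9 interferon-stimulated genes (red) and the genes of 10 related lists (blue), 1 point per gene past the filter, with the median of each list as a black bar and dotted lines at 2-fold. The wider list of interferon-stimulated genes centres near 0 in both, with medians of 0.16 and -0.05, and GBP3, at 0 reads in CDK4/6 KD, is the point farthest to the left on the right, where its place depends on the 0.5 reads added.

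The genes whose pattern over the 4 libraries was most like the mean of the 9 were DTNA, YIPF6, A2M, PJA1 and COX7A2L. Likeness was the Euclidean distance between centred log2 levels over 4 libraries, for 10669 other genes with at least 200 reads in all, and ran from 0.0503 for DTNA to 0.0579 for COX7A2L. The mean profile itself was -0.28 in DMSO, 0.16 in PD0332991, -0.21 in scrambled siRNA and 0.34 in CDK4/6 KD on the log2 scale, a shape to which IFIT2 added much through its 1 to 10 reads.

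On GRCh38 in GENCODE 29, IFIT2, IFIT3 and IFIT1 lie in a row on the plus strand of chromosome 10, from 89283694 to 89309276, 89327894 to 89340971 and 89392546 to 89406486. ISG15 (1001138 to 1014540, plus strand) and IFI6 (27666061 to 27672218, minus strand) are on chromosome 1. OAS1 is on chromosome 12 (112906777 to 112933222), MX1 on chromosome 21 (41420304 to 41459214), and IRF9 (24161053 to 24166565) and IFI27 (94104836 to 94116698) on chromosome 14, all on the plus strand. The deposited counts were made on hg19 and carry symbols only, so these positions name the genes and not the counted intervals. Exons of IFIT2 overlap those of LIPA on the opposite strand and those of AL353751.1 on the same strand. Exons of ISG15 overlap a pseudogene on the opposite strand, and exons of OAS1 and MX1 each overlap an antisense gene. Those of IRF9 overlap AL136295.5 on the same strand. Whether counting used the strand is not given in the sources used here, which leaves those counts less certain. For the same-strand overlaps of IFIT2 and IRF9, use of the strand would not settle this. GENCODE 29 lists 1 pseudogene of IFIT1, IFIT1P1.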

How the data were processed

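Total RNA of 4 HepG2 cultures, 1 per condition, had been sequenced by the authors as QuantSeq 3′ libraries, single-end, on an Illumina instrument. The deposited values are raw counts of reads, 1 table per library with a row for each gene symbol, to which the authors applied no normalization. The submitters' processing notes name Bowtie2, edgeR and hg19, and their annotation is not given in the sources used here. Conditions were taken from the sample titles. Each table listed 25737 entries, and repeated symbols, of which there were 286, had their counts summed. TMM factors came from edgeR 4.0.16 (R 4.3.3). Fold changes used 0.5 added reads and a filter of 10 reads, with 95% Clopper-Pearson intervals (scipy 1.17.1). A gene with 3 reads or fewer in both libraries got no fold change. edgeR's quasi-likelihood test needs replicates and was not run. The procedure was tested on simulated data. The members, the gene lists and the comparisons were chosen with earlier results of these data known. All 9 members were named, with the 3 genes per list of the firmest difference in each siRNA comparison and a set of pathway genes (IFNB1, IFNL1, STAT2, IRF3, IRF7, DDX58, IFIH1, USP18 and 1 that is not reported here). Further genes, some at or near 0 reads, were named with their values in view. Alternatives were DESeq2 1.42.0 size factors, total counts, quantile normalization (limma 3.58.1), 5 added reads, keeping only the most counted row of a repeated symbol, no filter or 50 reads, the control of the other arm and other thresholds.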

Additional observations from a re-analysis of the deposited data

How the results depend on the processing

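Each condition had 1 library, so no replicate could be left out, and no paired analysis was possible because there were no replicates. The counts of members past 2-fold moved under the following settings. Apart from the count with any gap, the share over all genes was not computed under them. These counts therefore describe how the calls moved and do not set the members apart from all genes. With total counts, 1 member (IFI27) was 2-fold lower in scrambled siRNA than in DMSO, in place of 0. IFI27 met the filter through DMSO alone there, so that it could be counted only by being high in DMSO. With 5 added reads, 0 were 2-fold higher in CDK4/6 KD than in PD0332991, where IFIT1 had a fold change of 1.92 against 2.11 as reported. A filter of 50 reads left 1 higher in CDK4/6 KD against scrambled siRNA and 0 higher in PD0332991 against DMSO. With the control of the other arm, 2 (IFIT2 and MX1) were lower in scrambled siRNA against PD0332991. The same 2 were higher in PD0332991 against scrambled siRNA, which is that comparison inverted and not a separate result. IFIT2 met the filter through PD0332991 alone there. In CDK4/6 KD against DMSO, 1 was higher, in place of 2 against scrambled siRNA. At 1.5-fold, 1 was higher and 1 lower in scrambled siRNA against DMSO, 3 were higher and 1 lower in CDK4/6 KD against PD0332991, and 4 were higher in CDK4/6 KD against scrambled siRNA. Requiring an interval wholly beyond 2-fold, 0 were higher in CDK4/6 KD against PD0332991, in CDK4/6 KD against scrambled siRNA and in PD0332991 against DMSO. With any gap, 1 gene (OAS1) was above both others in both siRNA libraries. Against DMSO alone, without the PD0332991 library, an alternative chosen after seeing the data, none was 2-fold above in both. The other 114 recomputed counts and medians stayed within 1.5 times or within counting error. Of the fold changes and mean differences of single members, 316 stayed within counting error and 2 did not, both for OAS1 under the exchanged control. A change of filter leaves these values as they are, so those among the 316 could not move. Mean differences were held against a median counting error from scrambled siRNA against DMSO and not against that of each gene. Counting error is wide for IFIT2, whose fold change in PD0332991 against DMSO went from 7.21 to 2.63 with 5 added reads. No member called at 2-fold changed direction. Depth limits IFIT2, IFI27 and IFIT1 most, with 1 to 53 reads per library.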

Other observations

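Lists of genes for antigen presentation, NF-kappaB feedback and RNA interference were read in the same pair of siRNA comparisons. Of 15 genes of MHC class I presentation, 1 had an interval above 1 and 6 had one below in scrambled siRNA against DMSO, beside 28.3% and 28.0% of all genes. In CDK4/6 KD against PD0332991 they were 2 and 8, beside 29.4% and 27.7%. PSMB8, an immunoproteasome subunit, was lower in scrambled siRNA against DMSO (fold change: 0.513, 95% interval of counting error 0.427 to 0.613) and lower in CDK4/6 KD than in PD0332991 (fold change: 0.642, interval 0.544 to 0.757). ERAP2, a peptide-trimming peptidase (fold change: 0.511, interval 0.366 to 0.704), and NLRC5, the transactivator of these genes, on 5 and 16 reads (fold change: 0.287, interval 0.0765 to 0.762), were lower in scrambled siRNA against DMSO. NLRC5 met the filter through DMSO alone, so that it could enter only by being high there. HLA-E (fold change: 0.507, interval 0.456 to 0.562) and TAPBP (fold change: 0.652, interval 0.601 to 0.707) were lower in CDK4/6 KD than in PD0332991.

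NFKBIA, the inhibitor that NF-kappaB itself induces, had 3992 reads in DMSO, 3485 in PD0332991, 1765 in scrambled siRNA and 2248 in CDK4/6 KD, so that both siRNA libraries lay below both others. Its fold changes were 0.378 (interval 0.357 to 0.399) in scrambled siRNA against DMSO and 0.519 (interval 0.492 to 0.547) in CDK4/6 KD against PD0332991. Of the 12 NF-kappaB feedback genes and chemokines past the filter in CDK4/6 KD against PD0332991, 6 were at least 2-fold lower and none was 2-fold higher, beside 7.44% and 6.65% of all genes, with a median log2 fold change of -1.01, CCL20 (fold change: 0.479) and CCL2 (5 and 20 reads) among them. In scrambled siRNA against DMSO, 2 of 10 were 2-fold lower and none was 2-fold higher, beside 6.64% and 5.30% of all genes, and the median was 0.16, with CXCL1 lower (5 and 18 reads) and BIRC3 higher (fold change: 1.78, interval 1.23 to 2.63). CCL2 met the filter through PD0332991 alone and CXCL1 through DMSO alone.

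Of 12 genes of the siRNA machinery, 3 had an interval above 1 and 4 had one below in scrambled siRNA against DMSO. These compare with 28.3% and 28.0% of all genes. In CDK4/6 KD against PD0332991 they were 4 and 6, beside 29.4% and 27.7%. TNRC6C (fold change: 0.483, interval 0.421 to 0.553), TNRC6A (fold change: 0.606, interval 0.565 to 0.650) and AGO4 (fold change: 0.609, interval 0.434 to 0.846) were lower in scrambled siRNA against DMSO. AGO2, the Argonaute that cuts siRNA targets (fold change: 0.543, interval 0.468 to 0.629), and TNRC6B (fold change: 0.680, interval 0.623 to 0.740) were lower in CDK4/6 KD than in PD0332991, while TNRC6A was higher (fold change: 1.29, interval 1.22 to 1.36). Each of these values compares single libraries, and their cause was not tested.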
